A study of Mus musculus with 6 samples.

Results

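Neurod1 and its closest relatives are proneural genes of the basic helix-loop-helix (bHLH) class, and they were examined here in pineal glands of newborn mice that lack Neurod1. The list held 9 genes: Neurod1, Neurod2, Neurod4, Neurod6, Neurog1, Neurog2, Nhlh1, Nhlh2 and Bhlhe22. Members were found as probe sets that the platform annotation gave to exactly 1 gene, that gene being on the list. This found 14 probe sets for 8 of the 9 genes, out of 18193 named genes on the array, and Bhlhe22 was not analysed here. Where a gene had several probe sets, the one with the highest mean over all 6 arrays stands for it and the others are given beside it.

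The knockout group comprised 3 pools of pineal glands from 129 mice homozygous for the Neurod1 knockout, and the wildtype group 3 pools from wildtype 129 mice. All glands were taken by day at postnatal day 0, and lights were on for 12 h and off for 12 h of each day. RNA of 3 glands was combined in a pool and hybridised to a single array, so differences between single animals cannot be seen. The labels call the knockout mice transgenic but give neither the deleted stretch of Neurod1 nor the cells in which it is deleted. Knockout and wildtype pools that share a number also share a date in the labels.

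Proneural bHLH factors bind DNA as dimers with E proteins, the broadly expressed bHLH factors encoded by Tcf3, Tcf4 and Tcf12, at the short motif CANNTG, named the E-box. Neurogenins (Neurog1, Neurog2) act early, in dividing progenitors that commit to a neuronal fate, while the NeuroD and Nhlh factors act later, as neurons differentiate. Id proteins bind E proteins without binding DNA, and Hes and Hey repressors of the Notch pathway keep progenitors from differentiating. In mouse, Neurod1 is known for its part in differentiating neurons, pancreatic endocrine cells, retinal photoreceptors and pinealocytes, the melatonin-producing cells of the pineal gland.

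The sequences upstream of Neurod1 and Neurod4 are shown because dimers of the family bind E-boxes and these members lay above the 99th percentile of the receptor probe sets, described below, in every wildtype pool. Each is the 250 bases before the annotated start on the gene's own strand, from RefSeq (GRCm38.p6), with every CANNTG in capitals.
Neurod1, minus strand of chr2:79456637-79456886: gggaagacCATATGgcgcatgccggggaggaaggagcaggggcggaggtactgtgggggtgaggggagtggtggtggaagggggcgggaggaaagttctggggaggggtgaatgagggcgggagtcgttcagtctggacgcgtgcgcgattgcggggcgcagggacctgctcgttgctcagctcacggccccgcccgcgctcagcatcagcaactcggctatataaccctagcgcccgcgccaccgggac
Neurod4, minus strand of chr10:130280255-130280504: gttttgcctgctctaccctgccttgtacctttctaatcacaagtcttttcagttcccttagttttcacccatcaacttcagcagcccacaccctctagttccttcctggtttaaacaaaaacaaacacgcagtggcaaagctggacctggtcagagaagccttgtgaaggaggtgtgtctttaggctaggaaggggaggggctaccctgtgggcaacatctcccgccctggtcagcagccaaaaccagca
The Neurod1 window held 1 CANNTG, the letters CATATG beginning 242 bases before the start. The Neurod4 window held 0, as did the window of a second annotated Neurod4 start. All 8 members with a probe set had a window. CANNTG was present upstream of 5 of them, with 3 matches for Neurod2, 2 each for Neurod6 and Nhlh2, and 1 each for Neurod1 and Nhlh1, while Neurog1 and Neurog2 had none. Of all 32851 upstream windows in the table, 66.2% held CANNTG, which reads the same on both strands. The letters CAGATG, or CATCTG on the other strand, were present for Neurod2, Nhlh1 and Nhlh2 and in 14.4% of all windows. These matches overlap those of CANNTG, of which they are a special case.

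Some pools held transcripts that the genotype did not order. The signals of 5 choroid plexus genes, mainly Ttr, summed to 91597, 70212 and 2736 in knockout pools 1, 2 and 3, against 2991, 42068 and 71351 in the wildtype pools. Those of 7 male germ cell genes summed to 623.3, 29222 and 395.5 in knockout pools, against 308.8, 4154 and 779.1 in wildtype pools, so that both pools numbered 2 stood apart. Of 11 pinealocyte markers 10 lay above the receptor level, defined next, in all 6 pools, the exception being Gngt1. Their signals differed widely, with Aanat between 229.5 and 511.6 and Otx2 between 9618 and 15178.

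Which relatives gave a signal in wildtype was read against receptor genes best known from other sensory organs. These were 84 probe sets for olfactory, vomeronasal, bitter taste and trace amine receptors, and the 95th percentile of their signals on each array served as the receptor level. It was 267, 170 and 186 in knockout pools 1, 2 and 3, and 114, 150 and 231 in the wildtype pools. Since each probe set has a background of its own, a signal above this level describes the probe set and is not a detection call. In all 3 wildtype pools 4 of the 8 members lay above it: Neurod1, Neurod4, Neurod2 and Neurog2. In all 3 knockout pools 2 members did, Neurod4 and Neurog2. Neurod1 and Neurod2 lay above it in knockout pools 1 and 2 but not in pool 3. This count was not made over all genes. At the 99th percentile of the receptor probe sets, only Neurod1 and Neurod4 lay above it in every wildtype pool.

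**Figure D1:**
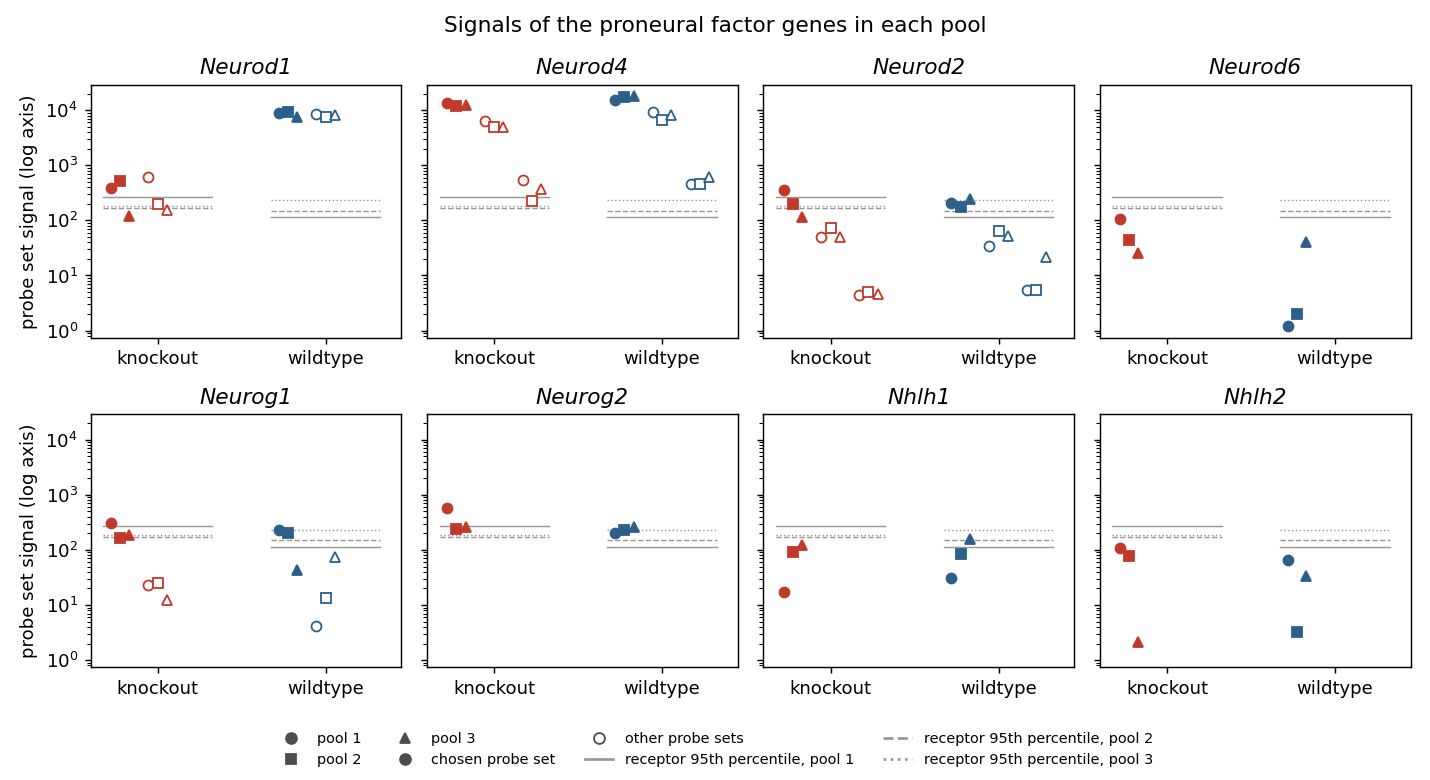
Signals of each proneural factor gene in the 3 knockout pools (red, left) and the 3 wildtype pools (blue, right) on a log axis; filled marks are the chosen probe set, open marks the others, the shape gives the pool number, and grey lines are the receptor level of each pool. Neurod1 lies between 122.5 and 523.9 in knockout and between 7519 and 9301 in wildtype, Neurod4 is bright in both, and Neurod6, Nhlh1 and Nhlh2 lie below the receptor level in every pool.

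Neurod1, the targeted gene, had signals of 390.2, 523.9 and 122.5 in knockout pools 1, 2 and 3, against 9027, 9301 and 7519 in the wildtype pools (probe set 1426413_at). The groups lay far apart, and the signal averaged 346 ± 204 in knockout and 8616 ± 959 in wildtype (SD, n = 3 each). Differences between groups were tested on log2(signal + 38.6) with limma, and p-values were adjusted by Benjamini-Hochberg over 12797 genes. Because of the offset, fold changes of dim genes come out too small on this scale. Neurod1 fell by 4.67 on this scale in knockout (SE 0.45, 95% interval −5.69 to −3.64, limma adjusted p = 0.0362). Its other probe set, 1426412_at, had 605.3, 197.8 and 156.2 in knockout pools, against 8549, 7674 and 8248 in wildtype pools, a difference of −4.73. Both probe sets followed the genotype labels in every pool. What remained in knockout lay above the receptor level in 2 of 3 pools for each probe set. These were pools 1 and 2 for both, while in knockout pool 3 both were below it.

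Neurod1 was the 1 member called lower among the 5 members tested, and 0 members were called higher. The 5 were those that passed the filter on dim probe sets, Neurod1, Neurod2, Neurod4, Neurog1 and Neurog2. Over all tested genes limma called 0.00781% lower, which is Neurod1 alone, and 0% higher. Without adjustment, 175 genes were lower and 253 higher at p under 0.05, among them 0 members with a higher mean. A share of about 0.05 of all tested genes would have such a p with no true difference. The knockout and wildtype pools did not overlap, in the lower direction, for 2 of the 5 members, Neurod1 and Neurod4, and for 4.33% of all tested genes. In the higher direction they did so for 0 of 5 members and for 5.77% of all genes. The Neurod1 call ended without wildtype pool 1, 2 or 3 (adjusted p = 0.621, 0.316 and 0.376), without knockout pool 1 (0.0985), without both pools of any 1 number (0.813, 0.201 and 0.0638) and with no offset (0.0737), while its difference stayed between −5.04 and −4.13 in all 20 alternatives.

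Neurod4, a NeuroD factor of differentiating neurons and retinal cells, was far above the receptor level in every pool and had lower, not higher, values in knockout. Its probe set 1436694_s_at had signals of 13474, 12127 and 12579 in knockout pools, against 15072, 17068 and 17770 in wildtype pools. Every knockout pool lay below every wildtype pool, with means of 12727 ± 686 in knockout and 16637 ± 1400 in wildtype (SD, n = 3 each), a ratio of 0.765. The log2 difference was −0.38 (SE 0.28, 95% interval −1.01 to 0.24), and it did not pass the limma threshold (adjusted p = 0.998). Probe set 1418054_at also separated the groups, with 6405, 4877 and 5015 in knockout, against 9361, 6669 and 8217 in wildtype, a difference of −0.57. Probe set 1418055_at had 543.5, 221.9 and 368.0 in knockout and 456.8, 455.9 and 625.6 in wildtype; there the groups overlapped and the difference was −0.47. All 3 Neurod4 probe sets therefore had lower means in knockout, but they share a transcript and are not replicates. The ending of 1436694_s_at marks probes that can match several transcripts.

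The interval of the Neurod4 difference bears on the question whether this relative rises where Neurod1 is missing. Its ends correspond to 0.497 and 1.18 times the wildtype level. The difference kept its sign in all 21 alternatives, between −0.60 and −0.33. It passed the threshold in 1 of them, limma's array weights (−0.48, adjusted p = 0.0256). With those weights 2 of 5 members were called lower, against 11.1% of all genes, and 0 of 5 higher, against 11.8% of all genes. The weights rested on few arrays, being 6.20 for knockout pool 2 and 7.05 for wildtype pool 2 and at most 0.541 for the others. Both pools numbered 2 were also those that stood apart in the male germ cell sums.

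**Figure D2:**
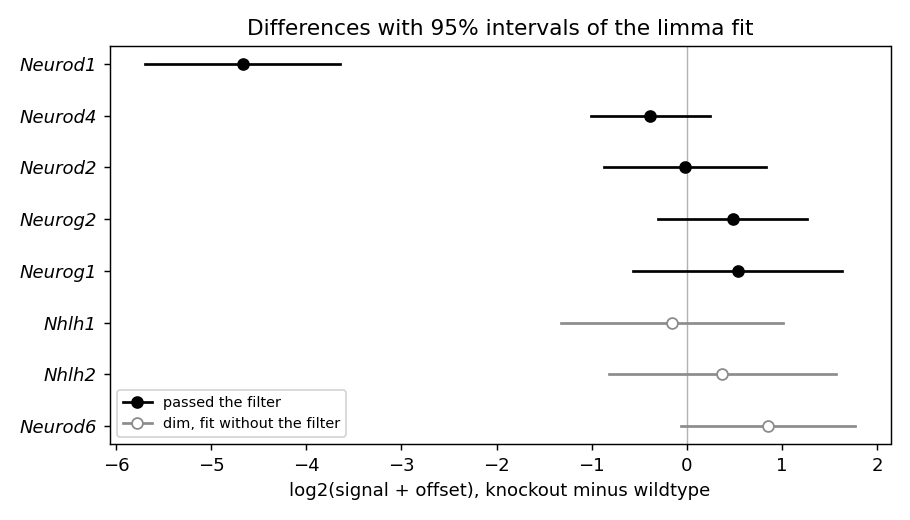
Differences in log2(signal + offset), knockout minus wildtype, with the 95% intervals of the limma fit; black marks are the 5 members that passed the filter and open grey marks the 3 dim members in a fit without the filter. Neurod1 is at −4.67, while the intervals of all other members include 0, and that of Neurod4 ends at 0.24.

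Pinealocyte genes had lower means beside Neurod4. In these bulk pools, fewer cells of a type and less RNA per cell cannot be told apart. Of 11 markers 10 had a lower mean in knockout, Lhx4 being the exception (0.16), against 46.8% of all tested genes. Tph1, Crx, Sag and Ddc were each highest in pool 1 of both genotypes, so the signs of the markers need not be independent. Limma called 0 of the 11 markers, with 1 (Ddc) at an unadjusted p under 0.05. The median log2 difference of the markers was −0.44, against 0.03 over all tested genes. Their signals summed to 46559, 31480 and 27632 in knockout pools, against 59442, 48323 and 39980 in wildtype pools. Within numbers 1, 2 and 3 the median difference of the markers was −0.27, −0.84 and −0.71, while that of Neurod4 (1436694_s_at) was −0.16, −0.49 and −0.50. For probe set 1418054_at it was −0.54, −0.45 and −0.71, and for 1418055_at 0.23, −0.92 and −0.71. The part of the pinealocyte genes in the Neurod4 difference was not tested. Neurod1 had differences of −4.40, −4.05 and −5.55 within the same numbers.

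**Figure D3:**
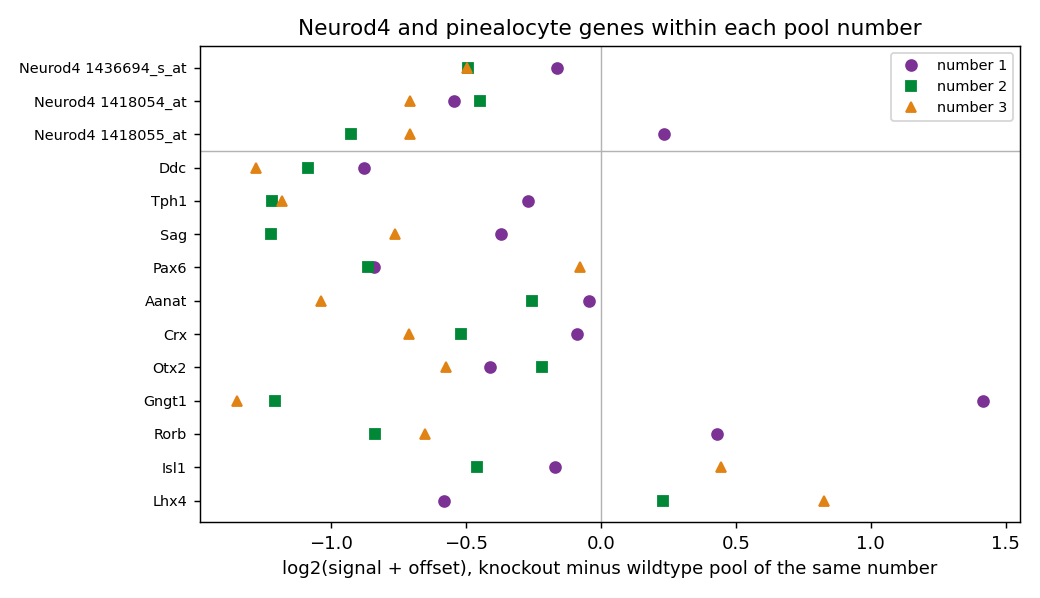
Differences in log2(signal + offset) between the knockout and the wildtype pool of the same number, for the 3 Neurod4 probe sets (top) and 11 pinealocyte genes (below); shapes and colours give the pool number. Probe set 1418054_at is below 0 in each number, and 1418055_at is at 0.23 in number 1. Ddc, Tph1, Sag, Pax6, Aanat, Crx and Otx2 are below 0 in each number. Gngt1 and Rorb are above 0 in number 1, Lhx4 in numbers 2 and 3, and Isl1 in number 3.

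Neurod2, a NeuroD factor of maturing neurons of cortex and cerebellum, was dim. Its chosen probe set, 1435411_at, had 354.0, 198.6 and 115.2 in knockout pools, against 209.4, 171.5 and 247.4 in wildtype pools. The knockout pools spread on both sides of the wildtype pools. The means were 223 ± 121 in knockout and 209 ± 38.0 in wildtype (SD, n = 3 each), with a log2 difference of −0.02 (SE 0.38, 95% interval −0.87 to 0.83, limma adjusted p = 0.999). The interval allows a 1.78-fold higher value of signal plus offset, and more for the signal itself, so a moderate change was not detectable. Within numbers 1, 2 and 3 the difference was 0.66, 0.18 and −0.89. The sign of the difference turned to positive without knockout pool 3 (0.31), which had the lowest signal. The other probe sets, 1418995_at and 1444362_at, stayed between 35 and 71.6 and between 4.5 and 21.7, below the receptor level in all 6 pools.

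Neurog2, a neurogenin of dividing progenitors, had signals of 574.7, 237.2 and 265.1 in knockout pools, against 200, 228.2 and 259.3 in wildtype pools. It lay above the receptor level in every pool, and knockout pool 1 was the highest of the 6. Knockout pool 3 also lay just above the wildtype range and knockout pool 2 within it, so the groups overlapped. The means were 359 ± 187 in knockout and 229 ± 29.7 in wildtype (SD, n = 3 each), with a log2 difference of 0.48 (SE 0.35, 95% interval −0.30 to 1.26, limma adjusted p = 0.998). Within numbers 1, 2 and 3 the difference was 1.36, 0.05 and 0.03, and without knockout pool 1 it was 0.12. The receptor level was also highest in knockout pool 1, at 267, and its part in the Neurog2 signal was not tested.

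Neurog1, the second neurogenin, had signals of 307.7, 166.2 and 187.0 in knockout pools, against 229.5, 203.6 and 42.5 in wildtype pools (probe set 1438551_at). The groups overlapped, and wildtype pool 3 was the lowest of the 6. The log2 difference was 0.53 (SE 0.49, 95% interval −0.56 to 1.63, limma adjusted p = 0.998), and without wildtype pool 3 it was −0.016. Within numbers 1, 2 and 3 it was 0.37, −0.24 and 1.48. The other probe set, 1450836_at, was dim, with 23.2, 24.6 and 12.4 in knockout and 4.1, 13.4 and 74.5 in wildtype. There wildtype pool 3 was the highest of the 6, so the probe sets order that pool oppositely.

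**Figure D4:**
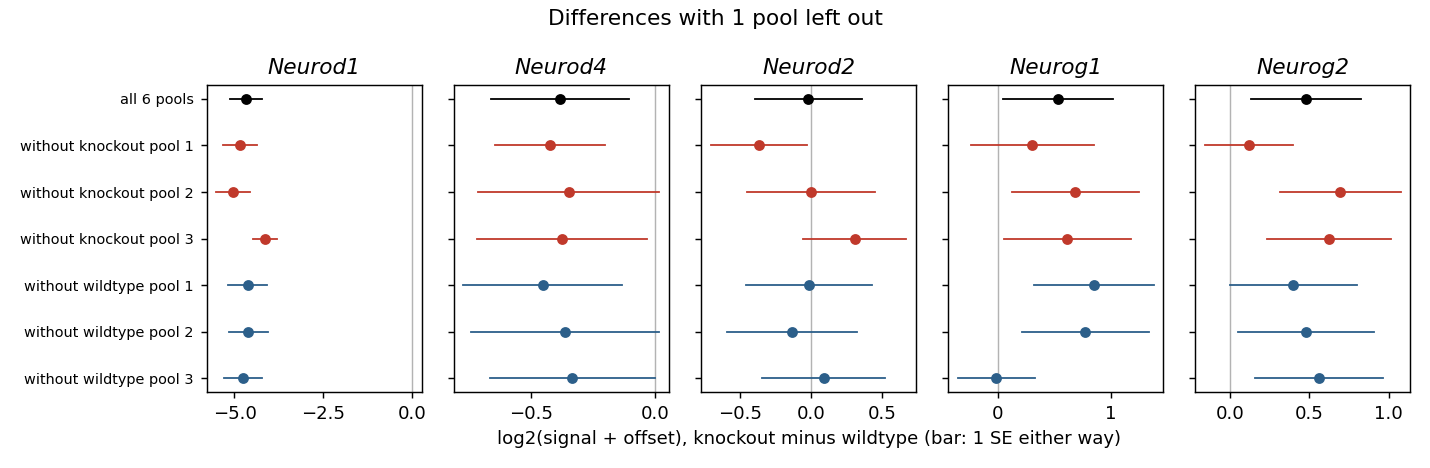
Differences in log2(signal + offset), knockout minus wildtype, for the 5 tested members over all 6 pools (black) and with 1 knockout pool (red) or 1 wildtype pool (blue) left out; bars span 1 SE either way and each panel has its own axis. Neurod1 and Neurod4 keep their sign throughout, Neurog2 drops to 0.12 without knockout pool 1, and Neurog1 is at −0.016 without wildtype pool 3.

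Neurod6, Nhlh1 and Nhlh2, each with 1 probe set, lay below the receptor level in all 6 pools and did not pass the filter. Neurod6, a NeuroD factor of cortical projection neurons, had 104.3, 43.8 and 25.2 in knockout pools, against 1.2, 2.0 and 40.4 in wildtype pools. The groups overlapped, since wildtype pool 3 exceeded knockout pool 3. Nhlh1, a factor of newly formed neurons, had 17.6, 93.4 and 122.9 in knockout pools, against 31.0, 84.1 and 155.8 in wildtype pools. In both genotypes its signal was lowest in pool 1 and highest in pool 3. Nhlh2, known for its part in hypothalamic and reproductive development in mouse, had 106.8, 77.2 and 2.1 in knockout pools, against 65.4, 3.2 and 34.0 in wildtype pools, again with overlap. In a limma fit without the filter, over 18193 genes, the log2 differences were 0.85 (SE 0.40) for Neurod6, −0.16 (SE 0.51) for Nhlh1 and 0.37 (SE 0.53) for Nhlh2, each with an adjusted p of 0.998. At these signals neither presence nor a change can be read.

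Neurons outside the gland also use these factors, so their markers were read beside the dim members. Of 8 cortex and hippocampus genes, 1 lay above the receptor level in all 6 pools, and their signals summed to between 1321 and 1893 in knockout and between 1359 and 2350 in wildtype. Of 9 cerebellar granule and midbrain genes 3 did, with sums, mostly Zic1, of 30368 to 41246 in knockout and 24668 to 30799 in wildtype. Means were lower in knockout for 5 of these 9 genes and higher for 4, and En2, which encodes an engrailed homeodomain factor, had 249.3, 714.9 and 695.2 in knockout pools, against 3390, 1556 and 1317 in wildtype pools (log2 difference −1.85, SE 0.48, limma adjusted p = 0.998). Of 9 habenula and thalamus genes 3 did. The sums of all 9, mostly Slc17a6 and Lhx9, were 14149 to 16633 in knockout and 17527 to 20491 in wildtype. By mean, 5 of the 9 were lower in knockout and 4 higher. Pou4f1, among the higher, had 126.3, 144.3 and 818.3 in knockout pools, against 74.5, 74.1 and 161.9 in wildtype pools. Its log2 difference was 1.11 (SE 0.61, limma adjusted p = 0.998). The cells that gave these marker signals, and the part of such neurons in the signals of Neurod2, Neurog1 and Neurog2, were not tested.

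The E protein partners were bright for Tcf4 and Tcf12 and dim for Tcf3. Of the 3 genes 2 had a lower and 1 a higher mean, and 0 were called by limma, or had an unadjusted p under 0.05, in either direction (median −0.23). Tcf4 averaged 12503 ± 2269 in knockout and 8699 ± 3014 in wildtype (SD, n = 3 each; log2 difference 0.56, SE 0.35), while its 4 other probe sets that passed the filter ran from −0.06 to 0.34. Tcf12 averaged 5366 ± 1617 in knockout and 6789 ± 505 in wildtype (−0.38, SE 0.33), with its other probe sets between −0.43 and 0.23. Tcf3 averaged 208 ± 113 in knockout and 229 ± 43.8 in wildtype (−0.23, SE 0.40). None of the 3 separated the genotypes.

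Of 15 other neural bHLH genes 14 had a probe set and only 4 passed the filter: Bhlhe40, Ptf1a, Atoh1 and Tal2. Means were lower for 2 and higher for 2, 0 were called by limma or had an unadjusted p under 0.05, and differences ran from −0.40 to 0.35 (median 0.01). Atoh1, the proneural gene of cerebellar granule cell progenitors, averaged 147 ± 11.4 in knockout and 132 ± 58.2 in wildtype (SD, n = 3 each). Among the inhibitors, 8 of 9 genes were tested, and 0 were called by limma or had an unadjusted p under 0.05 (median 0.09, range −0.37 to 0.32). The mean was higher for 7 and lower for 1, while 46.8% of all tested genes had a lower mean. The lower one was Hes1, the Notch target repressor, with 411 ± 76.9 in knockout and 541 ± 99.6 in wildtype. Id2, an inhibitor of E proteins, averaged 17139 ± 4167 in knockout and 13755 ± 3740 in wildtype (SD, n = 3 each; 0.32, SE 0.34). Pools overlapped for all 8 inhibitors.

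Genes known to act downstream of proneural factors in developing neurons were all 22 tested, with 11 lower and 11 higher means, 0 called by limma and 2 at an unadjusted p under 0.05 (median −0.06). The pools did not overlap for 2 genes in the lower direction, St18 and Elavl4, and for 4 in the higher, Dll4, Ebf2, Ebf3 and Cbfa2t3, against 4.33% lower and 5.77% higher over all tested genes. Ebf1, Ebf2, Ebf3 and Cbfa2t3 are named after their values were seen. St18, a zinc finger factor gene, had a log2 difference of −0.96 (SE 0.32) and Insm1, a zinc finger repressor gene of endocrine and neuronal cells, −0.92 (SE 0.38). The pools of Insm1 overlapped, and its other probe set had a difference of −0.49. Elavl4, a neuronal RNA-binding protein gene, averaged 283 ± 19.5 in knockout and 449 ± 135 in wildtype (SD, n = 3 each; −0.57, SE 0.27), with −0.13 and −0.06 for its other probe sets. Dll4, a Notch ligand gene also used by endothelium, averaged 314 ± 64.5 in knockout and 194 ± 41.2 in wildtype (0.60, SE 0.28). Cbfa2t3, a corepressor gene, had a difference of 0.52 for the chosen probe set, and −0.34 and 0.27 for its others. The Ebf genes, helix-loop-helix factors of differentiating neurons, had differences of 0.51 for Ebf1, 0.60 for Ebf2 and 0.55 for Ebf3. The other Ebf1 probe sets lay between −0.20 and 0.05. No gene of this list passed the limma threshold, each with an adjusted p of 0.998 or above.

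**Figure D5:**
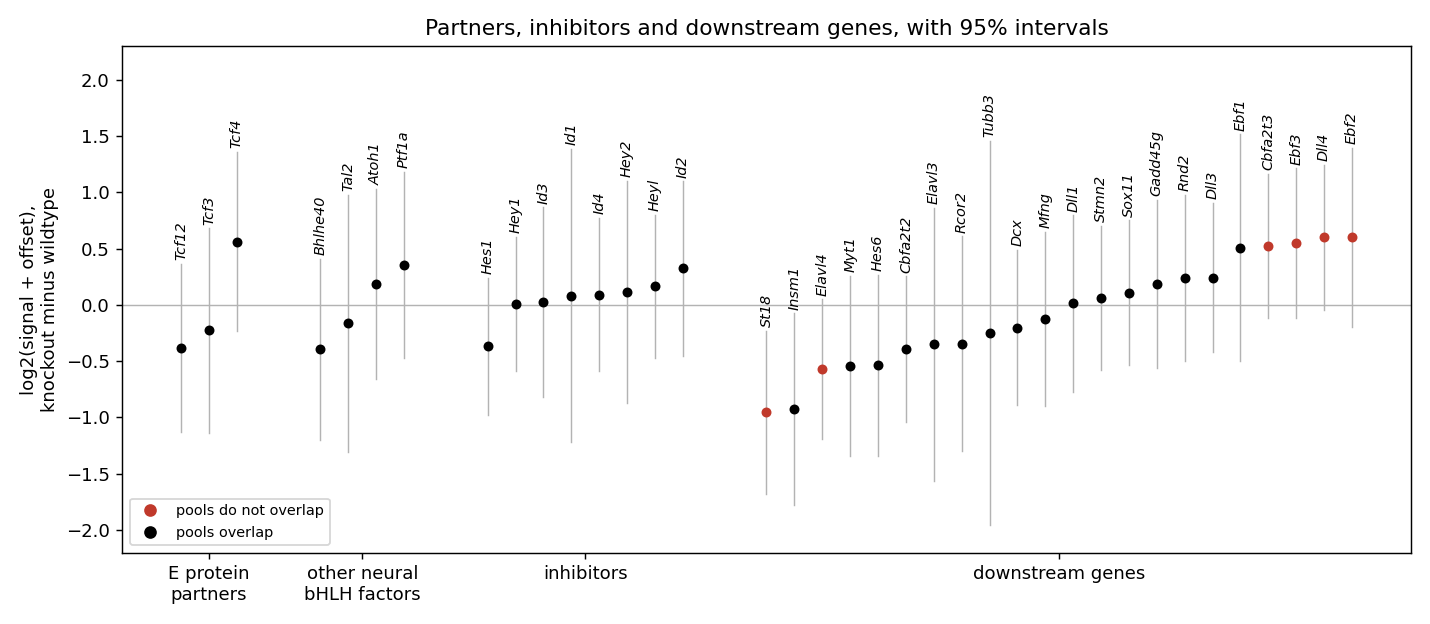
Differences in log2(signal + offset), knockout minus wildtype, with 95% limma intervals, for the tested E protein partners, other neural bHLH genes, inhibitors and downstream genes; red points are genes whose knockout and wildtype pools do not overlap. The downstream genes run from −0.96 for St18 to 0.60 for Ebf2, and the interval excludes 0, before any adjustment, only for St18 and Insm1.

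The genes whose profiles were closest to the members were found by the mean absolute difference of log2 values over the 6 pools, after each gene's own mean was taken off. Among 12797 genes, close profiles over 6 values can arise without any link. A like difference between genotypes is part of the choice and no separate result. Profiles could be matched only loosely for Neurod1. Its closest gene was Nat1, an arylamine acetyltransferase gene, at 1.29, followed by Trim36 at 1.41 and En2 at 1.41. Nat1 had signals of 22.1, 64.3 and 27.4 in knockout pools, against 326.2, 246.8 and 272.7 in wildtype pools. The Nat1 signals in knockout lay below the receptor level in every pool. The differences of these 3 genes were −2.10, −1.85 and −1.85, each with a limma adjusted p of 0.998. The closest to Neurod4 were Zfp974, Senp8 and the kinesin gene Cenpe, at 0.047, 0.049 and 0.058, with differences of −0.48, −0.40 and −0.38. The closest to Neurog2 were Pdlim2, Dgkk and Dnlz (0.050 to 0.070), and Pdlim2 reached 586.1 in knockout pool 1 while the 5 remaining pools lay between 218.4 and 293.3. The closest to Neurod2 were Rasgrp3, Nudt16 and Surf2 (0.051 to 0.076), all with overlapping groups.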

How the data were processed

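The authors deposited 1 linear intensity per probe set and array, for 45037 probe sets on 6 arrays. GCOS is named, without a version, in the submitters' processing notes; the sources used here do not state how probes were summarised. The deposited intensity columns had 2% trimmed means between 499.5 and 500.0, so arrays had been scaled before deposit; medians lay between 132 and 184. Per the labels' protocols, RNA was amplified once, which can distort low transcripts. The series' design text calls the pools of a genotype separate biological samplings.

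Signals were used as log2(signal + 38.6), the offset being the 20th percentile of all values. The 40% of probe sets with the lowest log2 mean (a signal under 105) were left out, and 1 probe set per gene, the one of highest log2 mean, was kept, leaving 12797 of 18193 genes. Probe sets were named from the platform annotation (34945 probe sets with 1 gene, 932 with several, 9160 with none). The genotypes were compared with limma 3.58.1 (R 4.3.3; lmFit, eBayes with trend, two-sided, 4 residual degrees of freedom, adjusted p under 0.05), tested on simulated data. With 3 pools against 3 an exact permutation test cannot go below p = 0.1, so none is given. The number of arrays limits precision (median SE 0.34).

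Same-numbered pools share a date in the labels, and their deviations from the group means correlated by 0.345, 0.213 and 0.411 across genes, so pools were treated as paired in an alternative fit. Named genes were the members, up to 4 genes of smallest p per list, and the 3 closest profiles of Neurod1 and of 3 other members. Other genes of the pinealocyte list, and Ebf1, Ebf2, Ebf3 and Cbfa2t3, are named outside this rule, after their values were seen. The members and lists were chosen with earlier results of these data known. Alternatives changed the offset, scaling, filter, probe sets, variance model, array weights, pairing and pools.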

Additional observations from a re-analysis of the deposited data

How the results depend on the processing

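The number of genes called lower in knockout, 1 in limma, was 0 with no offset and 0 without both pools numbered 1, 2 or 3, ran from 0 to 1 when 1 pool was left out, and was 1420 with array weights, whose estimation stopped before reaching its tolerance. The number called higher was 0, except 1512 with array weights. Members called lower numbered 1, against 0 with no offset, 0 without both pools of a number, 0 to 1 with 1 pool left out, and 2 (Neurod1 and Neurod4) with array weights. Members called higher numbered 0 in each of the 19 alternatives. Where no gene was called, between 123 and 1161 genes had an unadjusted limma p under 0.05. With no true difference, a share of about 0.05 of the tested genes would have such a p. The replicate block changed no call: Neurod1 had a difference of −4.67 (SE 0.32, limma adjusted p = 0.0158), and 798 genes had an unadjusted p under 0.05, against 428 without the block. Members above the receptor level in every wildtype pool numbered 4, against 2 at the 99th percentile and 4 to 5 with 1 wildtype pool left out. The Neurod2 difference changed sign with an offset at the 40th percentile (0.0021), with array weights (0.11), without knockout pool 3 (0.31), without wildtype pool 3 (0.089) and without both pools numbered 3 (0.42), and ran from −0.37 to 0.31 with 1 pool left out. The Neurog1 difference did so with array weights (−0.13) and without wildtype pool 3 (−0.016), and ran from −0.016 to 0.85 with 1 pool left out. Apart from the pools left out, the cause of these changes was not tested. Scaling to a common median moved the median of all genes to −0.13; relative to the median, Neurod4 was at −0.43 there, −0.60 with quantile normalization and −0.41 in the fit as reported. Signals near the receptor level limit what Neurod2, Neurog1, Neurog2 and the 3 dimmer members can show.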
